A study of Mus musculus with 5 samples.

Results

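The 51 genes described here encode subunits of oxidative phosphorylation from the nuclear genome. They were taken by symbol from the deposited table of normalised counts, whose rows carry Ensembl gene identifiers, by a rule that used membership of the complexes and not the values. The members were, however, chosen with earlier results of these data known. All 51 were found among the 19127 genes of the table. By respiratory complex they comprise 16 genes of complex I, 4 of complex II, 6 of complex III, the cytochrome c gene Cycs, 10 of complex IV and 14 of complex V. Ndufa4, first described as a complex I protein, is counted here with cytochrome c oxidase, where it is now placed.

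Oxidative phosphorylation makes ATP at the inner mitochondrial membrane. Complexes I and II pass electrons from NADH and succinate to ubiquinone, complex III passes them to cytochrome c, complex IV hands them to oxygen, and complex V, the ATP synthase, uses the proton gradient that results. Most subunits are encoded in the nucleus and imported, while a small core set is encoded by mitochondrial DNA, so both genomes must contribute to each complex other than complex II. Circulating neutrophils are known for few mitochondria and a metabolism that leans on glycolysis.

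RNA was sequenced from blood cells of male mice aged 7 to 10 weeks, lysed to remove red cells and sorted with the Ly6G antibody 1A8, which recognises a neutrophil surface protein. Blood was drawn at Zeitgeber time 13, counted in hours from lights on. The 2 Bmal1-labelled libraries, numbered 2 and 3, came from BMALf/f x Mrp8Cre mice, in which the floxed clock gene Bmal1 (Arntl) is the target. The 3 Cxcr4-labelled libraries, numbered 1 to 3, came from CXCR4f/f x Mrp8Cre mice, in which the floxed chemokine receptor gene Cxcr4 is the target. Both groups carried the Mrp8Cre transgene, whose promoter is active in the neutrophil lineage, and no Cre-free or unfloxed library was analysed here, so each difference is between 2 mutant groups. The labels do not say whether each library came from a separate mouse, so p-values measure only the spread between these libraries, which may in part be technical. In bulk samples such as these, fewer cells of a type and less RNA per cell cannot be told apart.

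Several library facts stand beside every result. The shallowest, Cxcr4-labelled library 1, held 356872 reads and the deepest, Cxcr4-labelled library 3, held 9101826, so that 3 reads corresponded to 6.46 and 0.351 normalised counts. The share of neutrophil markers was 2.32% in the shallowest library and 0.0437% in the deepest, with 1.13%, 0.772% and 0.460% in Bmal1-labelled libraries 2 and 3 and Cxcr4-labelled library 2. Ly6g, the gene of the sorted protein, was listed at 0 in Cxcr4-labelled library 2, Elane at 0 in every library but Bmal1-labelled library 3, and Mpo at 0 in 3 libraries, while the other 13 of 16 markers were above 0 in every library. Elane and Mpo are known as transcripts of neutrophil precursors, which mature blood neutrophils hold little of. Of the 15 markers tested, 5 had a negative difference (Bmal1-labelled minus Cxcr4-labelled) in limma, with a median of 0.75, but 11 in edgeR (median -0.62) and 11 in DESeq2 (median -0.71). At an adjusted p under 0.05 DESeq2 called 2 of these 15 and 1 of 3 tested eosinophil markers, against 0.0888% of all genes tested. In limma and edgeR 0 of these markers were called. Endothelial markers took between 0.743% and 2.66% in the 5 libraries, none of the 15 was at 0, and all 15 had a negative difference with a median of -0.49 on the log2 scale. Erythroid markers took 0.257% and 0.349% in the Bmal1-labelled and 0.00893% to 0.288% in the Cxcr4-labelled libraries. All 7 tested erythroid markers had a positive difference, with a median of 2.98 in limma, 1.66 in edgeR and 1.56 in DESeq2. Their groups did not overlap for 5 (71.4%, against 13.6% of all genes). At an unadjusted p under 0.05 limma called 5 higher, against 3.68% of all genes. edgeR and DESeq2 called 1 each, against 3.58% and 4.66%. B cell, T and NK cell, monocyte and macrophage, eosinophil and platelet markers each took at most 0.0423% of reads in any library. Arntl stood at 4.81 and 27.6 normalised counts in the Bmal1-labelled and at 1.05 to 15.1 in the Cxcr4-labelled libraries, and Cxcr4 at 128 and 399 against 4.80 to 72.2. Cxcr4 thus followed its label and Arntl did not, and directions below refer to the libraries as labelled. The part of cell makeup in the values of the respiratory genes was not tested.

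No gene of oxidative phosphorylation passed the adjusted threshold between the groups. All 51 passed the filter of a mean CPM (reads scaled to library size) of at least 1, and 0 of 51 passed an adjusted p of 0.05 in limma, where 0% of the 14632 genes tested did so, or in edgeR, where the background was again 0%, or in DESeq2, where it was 0.0888% (13 genes). The lowest limma adjusted p of any member was 0.9999. At an unadjusted p under 0.05, limma picked out 1 member, Cox6b1, which was lower in the Bmal1-labelled libraries, and 612 of all genes tested (4.18%, with 0.499% lower and 3.68% higher). edgeR picked out 1 member and 3.58% of genes, and DESeq2 2 members, Cox6b1 and Ndufa10, and 4.66%. The standard errors show what the design could resolve. They ran from 0.50 to 1.43 log2 units with a median of 0.69, and 33 of the 51 differences were smaller than their own standard error.

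Differences larger than 1 log2 unit in size were seen for 10 members, against 27% of all genes. The difference was negative, meaning a lower level in the Bmal1-labelled libraries, for 35 of 51 members (68.6%) with a median of -0.25, where 44.8% of all genes tested were negative and their median was 0.11. edgeR gave 39 negative members with a median of -0.42, against 53.4% of all genes, and DESeq2 39 with a median of -0.43, against 54.1%. Leaving out each library in turn moved the number of negative members between 26 and 39 and the median between -0.58 and -0.036. The values of the 2 groups did not overlap for 6 members lower in the Bmal1-labelled libraries (11.8%, against 5.22% of all genes), namely Cox6b1, Uqcrb, Atp5l, Uqcrfs1, Ndufs3 and Atp5j. They did not overlap for 3 members higher there (5.88%, against 13.6%), namely Ndufa2, Ndufa4 and Atp5e. The other 42 overlapped.

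**Figure D1:**
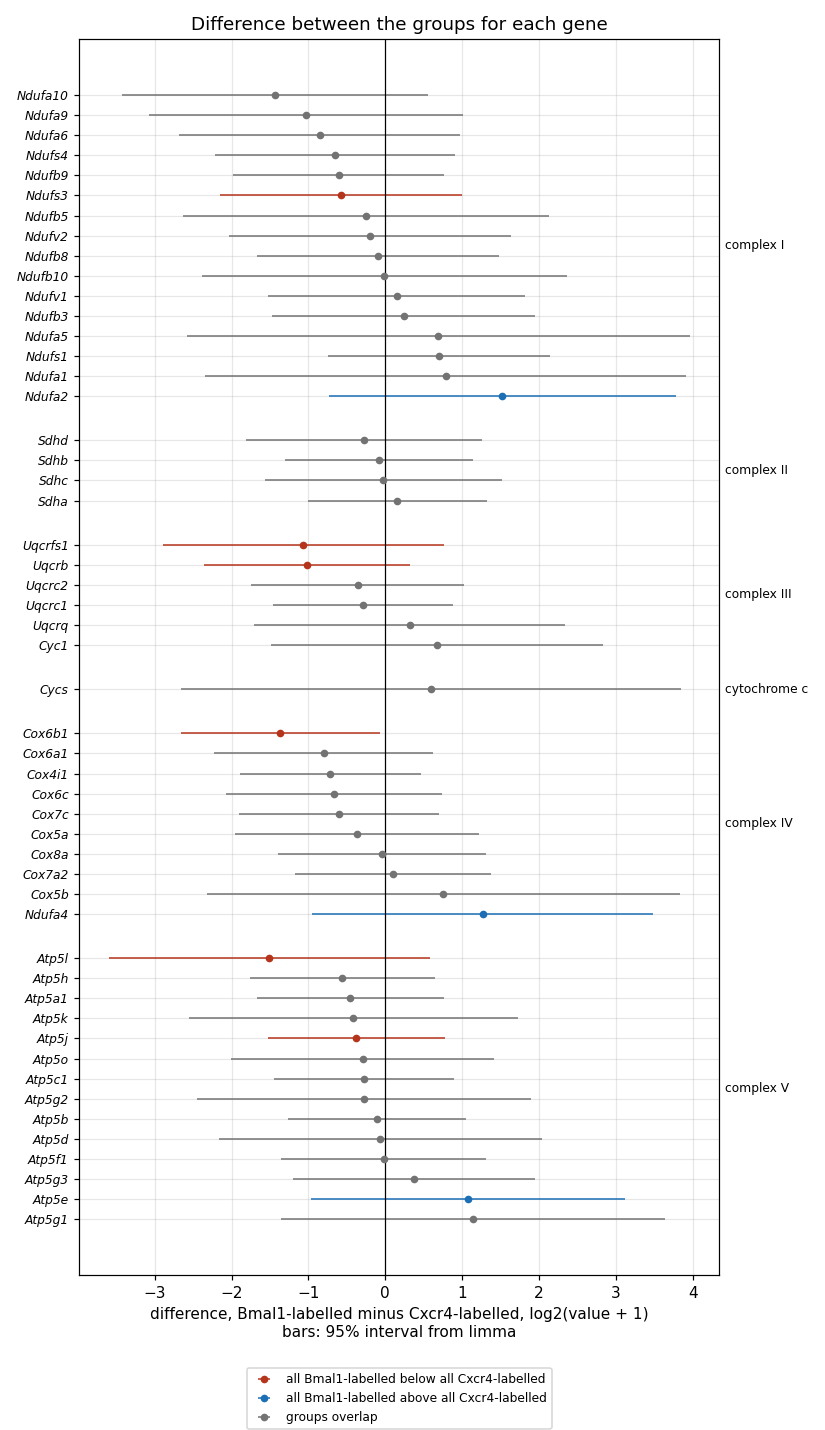
Difference between the groups for each of the 51 members (x axis, Bmal1-labelled minus Cxcr4-labelled, log2 of normalised count plus 1), ordered by complex on the y axis; points are limma estimates and bars their 95% confidence intervals. The intervals of 50 members cross 0, and only that of Cox6b1 does not.

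The 51 members together took 0.202% of reads in Bmal1-labelled library 2 and 0.236% in library 3. They took 0.213%, 0.269% and 0.342% in Cxcr4-labelled libraries 1, 2 and 3. The groups overlapped, since the shallow Cxcr4-labelled library 1, with 760 member reads, lay between both Bmal1-labelled libraries, and Cxcr4-labelled library 3, with 31084, stood highest. Of the 51 members, 25 had their highest value in Cxcr4-labelled library 3 (49%), where 29.3% of all genes peaked, while 1 peaked in Bmal1-labelled library 2 (1.96%, against 18.9%), 9 in Bmal1-labelled library 3 (17.6%, against 14.3%), 4 in Cxcr4-labelled library 1 (7.84%, against 12.2%) and 12 in Cxcr4-labelled library 2 (23.5%, against 25.4%). The lowest value fell in Cxcr4-labelled library 1 for 21 members (41.2%, against 31.3%) and in Bmal1-labelled library 2 for 13 (25.5%, against 18%). It fell in Bmal1-labelled library 3 for 5 (9.8%, against 10.2%), and in Cxcr4-labelled libraries 2 and 3 for 8 (15.7%, against 20.3%) and 4 (7.84%, against 20.1%). By complex, the summed shares of complexes III and IV were lower in both Bmal1-labelled libraries than in all 3 Cxcr4-labelled ones, at 0.0178% and 0.0204% against 0.0249%, 0.0219% and 0.0344% for complex III, and at 0.0371% and 0.0468% against 0.0502%, 0.0596% and 0.0725% for complex IV. For complexes I, II and V the shares overlapped. In summed normalised counts complex IV overlapped too, at 426 in Bmal1-labelled library 3 and 385 in Cxcr4-labelled library 1. The shares in Cxcr4-labelled library 1 rest on 89 reads for complex III and 179 for complex IV. Their 95% binomial intervals, 0.0200% to 0.0307% and 0.0431% to 0.0581%, include the shares of Bmal1-labelled library 3. Cxcr4-labelled library 3 was also the library with the most endothelial and the least neutrophil marker signal, and the part of this in the member levels was not tested.

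**Figure D2:**
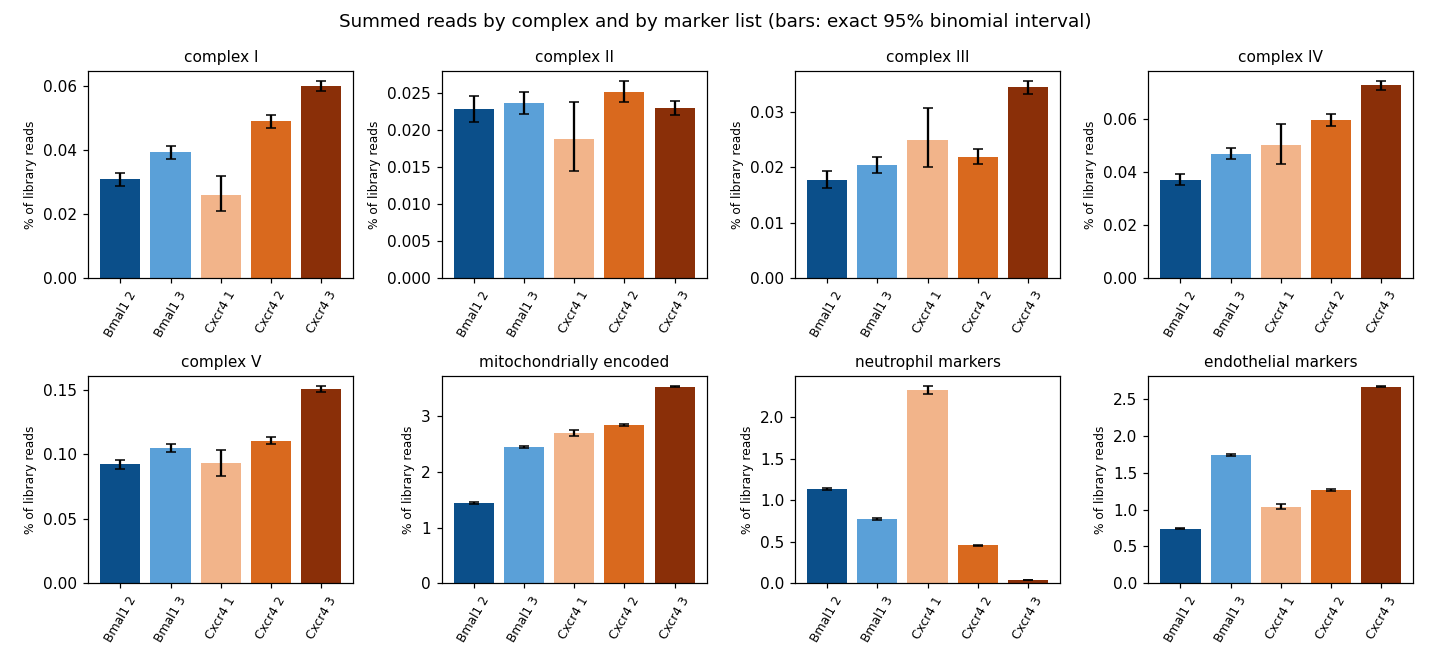
Summed share of reads (y axes, percent, each panel on its own scale from 0) taken by each complex, by the mitochondrially encoded genes and by the neutrophil and endothelial markers in each of the 5 libraries, with exact 95% binomial intervals. Complexes I, III, IV and V each stand highest in Cxcr4-labelled library 3, while complex II stays between 0.0188% and 0.0252%.

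Complex V genes took 41.1% to 45.7% of the member reads in the 5 libraries, complex IV genes 18.4% to 23.6%, and complex I genes 12.2% to 18.2%. Complex II genes took between 6.74% and 11.3%, the lowest share being in Cxcr4-labelled library 3. Atp5b and Atp5a1, the beta and alpha subunits that form the catalytic head of the ATP synthase, were the first and the next most counted members in every library, and the top 3 genes took 27.4% to 30.2% of the member reads. Across the 51 genes, the log2 levels of any pair of libraries correlated with an r between 0.546 and 0.829, a description across genes that share each library's depth.

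**Figure D3:**
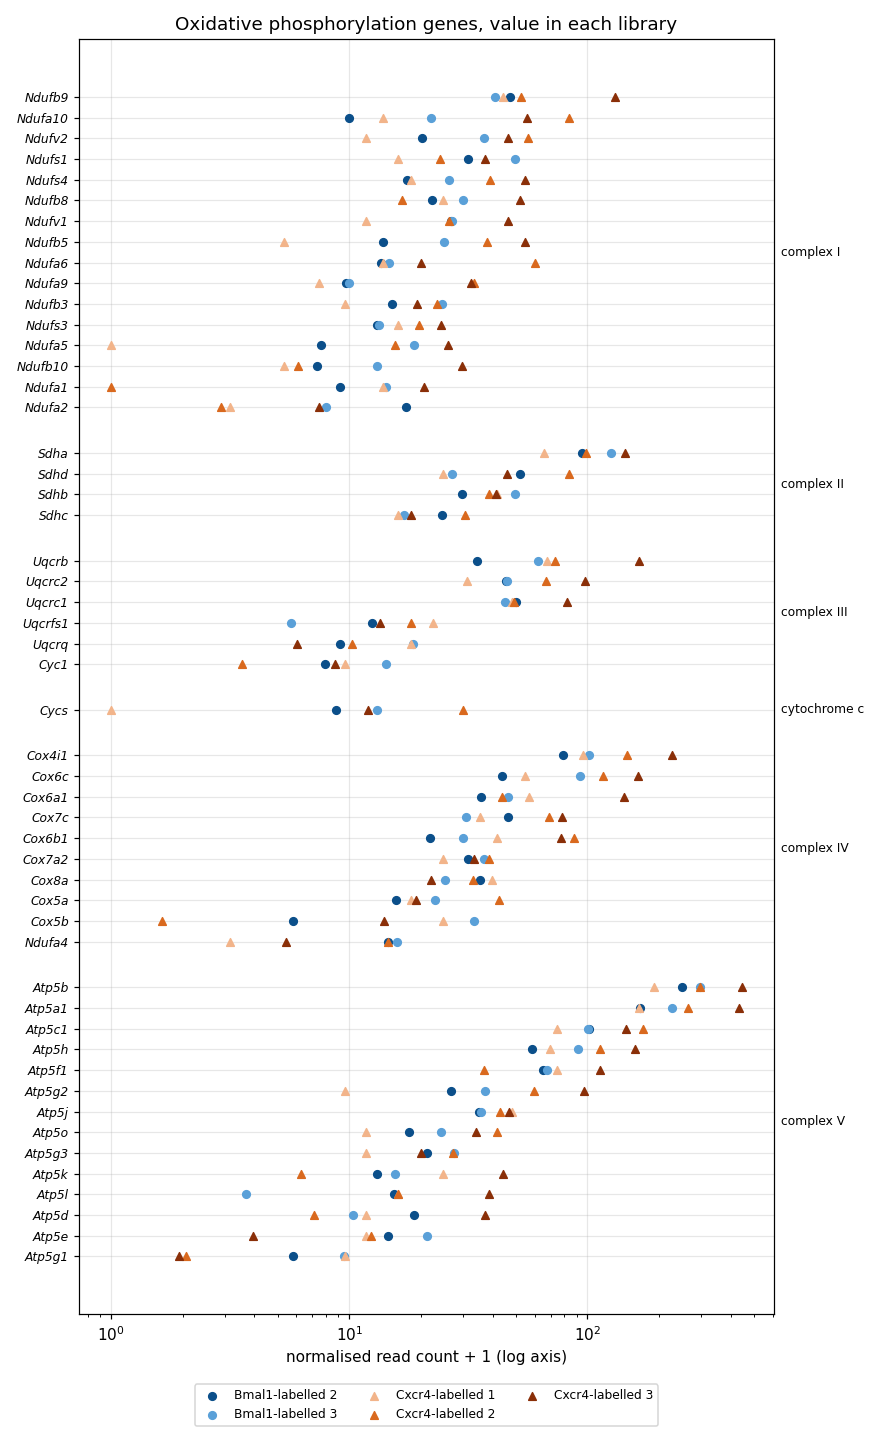
Normalised counts plus 1 (x axis, log scale) of the members in each of the 5 libraries, grouped by complex, with colours for the Bmal1-labelled and Cxcr4-labelled libraries. Points of the 2 groups intermix for 42 of the 51 members.

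Levels of different members can be compared only per length. Per kilobase of exon, as a mean over the 5 libraries, Cox6a1 stood highest at 91.4 normalised counts, followed by Uqcrb at 90.6, Cox4i1 at 83.1, Atp5a1 at 79.7 and Cox6b1 at 72.0. These neighbours did not differ beyond their spread, since Cox6a1 alone ranged from 49.2 to 202 between libraries and Cox4i1 from 50.4 to 145. Atp5g1 stood lowest at 0.974, and the ratio of highest to lowest member was 93.8. Reads on near-identical copies elsewhere in the genome are not counted in these levels. Such copies held 74.7% of the joint reads for Atp5g1 and 57.4% for Cycs, so the lowest level and the ratio are uncertain. Within complex I, Ndufb9 at 60.1 and Ndufa1 at 25.7 led and Ndufs1 was lowest at 3.80. Within complex II, Sdhd at 37.1 and Sdha at 25.4 led and Sdhc was lowest at 6.22. Subunits of the same complex thus differed widely in transcript level per length, taken over the union of annotated exons. In complex III, Uqcrb was followed by Uqcrc2 at 22.1, with Cyc1 lowest at 3.62, while Cycs stood at 3.53. In complex IV, Cox6a1 and Cox4i1 led and Ndufa4 was lowest at 7.02. In complex V, Atp5a1 and Atp5b (69.6) led. The order depended on the length used and on the deepest library. With the longest transcript as length, Cox4i1 (168), Atp5b (154), Uqcrb (140.4) and Atp5h (114) stood above Cox6a1 (103), Atp5b and Atp5h led complex V, and Ndufb5 (8.42) was lowest in complex I, where Ndufs1 stood at 11.5. Without Cxcr4-labelled library 3, Cox4i1 (67.5), Uqcrb (66.4) and Atp5a1 (65.3) stood above Cox6a1 (63.7), and Ndufb3 (22.5) followed Ndufb9 in complex I ahead of Ndufa1 (20.4).

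**Figure D4:**
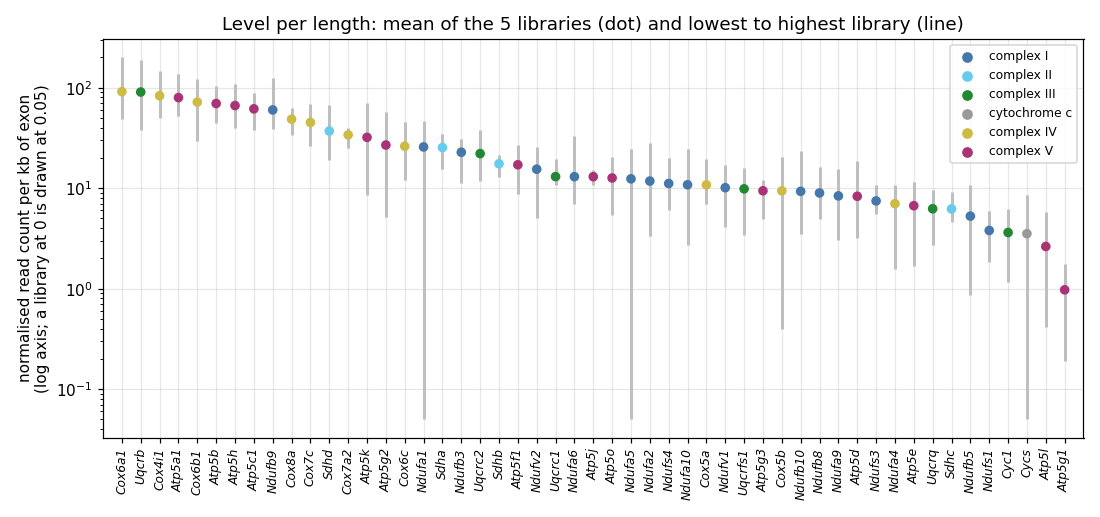
Level of each member per kilobase of exon (y axis, log scale, normalised counts per kilobase), ordered by level and coloured by complex; dots are means of the 5 libraries and lines run from the lowest to the highest library. Cox6a1, Uqcrb and Cox4i1 stand at the top and Atp5g1 at the bottom.

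Nuclear respiratory genes are known targets of the transcription factors NRF1 and GABP, so their promoters were read for both motifs. RefSeq (GRCm38.p6) windows of 250 bases upstream of the start matched 40 of the 51 members. The NRF1 motif, GCGCA and GCGC with any base between them, searched on both strands, lay in 8 of 40 members (20.0%), in 8.68% of the 10399 tested genes with a window and in 4.23% of all 27025 genes with one. The GABP motif CCGGAAG, also on both strands, lay in 8 of 40 (20.0%), in 15.0% of tested genes and in 7.83% of all genes. The E-box CACGTG, which the BMAL1 and CLOCK pair can bind and which reads the same on both strands, lay in 5 of 40 (12.5%) against 9.49% and 6.86%. Of the members with a window, it was found in 4 of 13 in complex V and 1 of 13 in complex I. It was found in 0 of 3 in complex II, 0 of 2 in complex III and 0 of 8 in complex IV. These numbers are too small to compare the complexes. A match of letters is a description and not a bound site. The 6 windows printed belong to members described below and hold an NRF1 or GABP match, which the capitals mark (windows of other members with a match are not printed); each is read 5′ to 3′ on the minus strand, the strand of its gene, and ends at the base before the RefSeq start. They lie at chr7:30626115-30626364 (Cox6b1), chr5:115348959-115349208 (Cox6a1), chr13:74350241-74350490 (Sdha), chr9:50603850-50604099 (Sdhd), chr11:115419920-115420169 (Atp5h) and chr2:174464102-174464351 (Atp5e).
Cox6b1: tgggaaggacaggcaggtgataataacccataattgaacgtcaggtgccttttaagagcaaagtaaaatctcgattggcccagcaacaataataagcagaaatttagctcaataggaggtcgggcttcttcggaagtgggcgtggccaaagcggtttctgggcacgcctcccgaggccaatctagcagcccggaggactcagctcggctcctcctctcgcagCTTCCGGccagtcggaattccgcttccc
Cox6a1: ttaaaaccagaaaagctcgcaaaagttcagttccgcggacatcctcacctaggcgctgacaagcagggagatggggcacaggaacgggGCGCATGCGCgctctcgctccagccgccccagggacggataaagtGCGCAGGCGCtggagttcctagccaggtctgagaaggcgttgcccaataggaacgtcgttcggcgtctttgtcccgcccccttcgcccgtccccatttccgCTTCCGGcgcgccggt
Sdha: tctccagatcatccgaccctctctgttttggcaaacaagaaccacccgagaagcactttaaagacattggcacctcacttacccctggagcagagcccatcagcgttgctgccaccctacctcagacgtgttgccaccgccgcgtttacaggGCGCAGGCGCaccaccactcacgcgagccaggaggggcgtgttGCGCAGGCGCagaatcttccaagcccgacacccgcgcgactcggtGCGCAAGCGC
Sdhd: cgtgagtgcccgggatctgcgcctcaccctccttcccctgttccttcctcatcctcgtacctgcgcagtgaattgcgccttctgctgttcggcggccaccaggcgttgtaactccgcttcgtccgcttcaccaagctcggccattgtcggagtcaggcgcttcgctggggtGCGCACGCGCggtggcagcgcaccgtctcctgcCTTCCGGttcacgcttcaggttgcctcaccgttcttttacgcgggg
Atp5h: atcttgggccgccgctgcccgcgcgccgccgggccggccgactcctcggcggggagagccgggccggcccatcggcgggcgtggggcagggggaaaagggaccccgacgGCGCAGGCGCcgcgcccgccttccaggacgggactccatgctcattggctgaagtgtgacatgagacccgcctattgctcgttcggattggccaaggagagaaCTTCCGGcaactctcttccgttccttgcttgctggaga
Atp5e: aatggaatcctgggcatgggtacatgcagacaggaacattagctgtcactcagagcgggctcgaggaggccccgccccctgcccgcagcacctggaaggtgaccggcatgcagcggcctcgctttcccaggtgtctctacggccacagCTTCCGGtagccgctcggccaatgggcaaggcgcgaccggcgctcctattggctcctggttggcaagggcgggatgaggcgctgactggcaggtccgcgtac
Sdha carried 3 NRF1 matches and Cox6a1 carried 2 with 1 GABP match, Sdhd and Atp5h held 1 of each, and Cox6b1 and Atp5e held a GABP match alone. The GENCODE starts of Cox6b1, Cox6a1, Sdha, Atp5h and Atp5e lie inside these windows. By GENCODE, the GABP matches of Cox6b1, Cox6a1 and Atp5h and the last NRF1 match of Sdha thus fall within the gene, not upstream of it. For 37 of the 44 windows of members, the bases after the RefSeq start were found near the beginning of a GENCODE transcript of the gene.

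In complex I, which takes electrons from NADH, 10 of 16 members were negative and 6 positive, with a median of -0.15 (-0.51 in edgeR). The median went to 0.16 without Bmal1-labelled library 2 and to 0.36 without Cxcr4-labelled library 3, and no member of the complex had an unadjusted limma p under 0.05. Ndufa10 (chromosome 1, 92439010 to 92473860, minus strand), an accessory subunit, stood at 9.02 and 21.1 normalised counts in the Bmal1-labelled libraries and at 12.9, 82.3 and 54.8 in the Cxcr4-labelled libraries. Its groups overlapped through Cxcr4-labelled library 1, and the difference was -1.43 ± 0.87 (SE; limma, unadjusted p 0.136). DESeq2 gave -1.77 (unadjusted p 0.0429, adjusted p 0.999), edgeR -1.78 with an unadjusted p of 0.0583, and the limma difference ran from -2.20 to -0.86 with single libraries left out, the ends being without Cxcr4-labelled library 1 and without Bmal1-labelled library 2. Ndufa9, an accessory subunit that holds a bound NADPH, had the same layout, at 8.72 and 8.97 against 6.46, 32.5 and 31.4, with 3 reads behind the value of Cxcr4-labelled library 1. Its difference was -1.03 with a standard error of 0.89, and was -1.74 without Cxcr4-labelled library 1, -0.66 without Cxcr4-labelled library 2 and -0.68 without Cxcr4-labelled library 3. Ndufs1, the largest core subunit and a carrier of iron-sulfur clusters, leaned the other way at 30.7 and 48.4 against 15.1, 23.0 and 36.3. Its groups overlapped and the difference was 0.70 ± 0.63 (SE).

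Ndufa2 (chromosome 18), a small accessory subunit, was the most positive member. It stood at 16.2 and 6.95 normalised counts in the Bmal1-labelled libraries and at 2.15, 1.90 and 6.44 in the Cxcr4-labelled ones, with a difference of 1.52 ± 0.99 (SE; limma, unadjusted p 0.16). The groups lay apart by a narrow gap, and the value of Cxcr4-labelled library 1 came from 1 read. Ndufa2 also overlaps exons of Tmco6, and whether counting used strand is not given in the labels, so reads of both genes may be mixed. Ndufs3, a core subunit, was lower without overlap at 12.0 and 12.3 against 15.1, 18.6 and 23.3. The value of Cxcr4-labelled library 1 came from 7 reads, with a 95% Poisson interval of 6.06 to 31.0 that includes both Bmal1-labelled values. Ndufa1 was listed at 0 in Cxcr4-labelled library 2, at least 12.8-fold below its lowest value elsewhere of 8.12, taking 3 reads as the floor, while Cxcr4-labelled library 3 had 19.7. Ndufa5 was at 0 in Cxcr4-labelled library 1, where the floor lay only 1.02-fold below its lowest value elsewhere.

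In complex II, succinate dehydrogenase, which belongs also to the citric acid cycle, 3 of 4 members were negative and the median was -0.05. Sdha, the flavoprotein that oxidises succinate, stood at 93.5 and 125 normalised counts in the Bmal1-labelled and at 64.6, 98.0 and 143 in the Cxcr4-labelled libraries. Its difference of 0.16 had a 95% confidence interval from -1.0 to 1.32, so changes of up to about that size in either direction remain within the error. Sdhb, the iron-sulfur subunit, stood at 28.9 and 48.4 against 40.9, 37.6 and 40.3, which put the Cxcr4-labelled values inside the range of the Bmal1-labelled pair (difference -0.08 ± 0.53, SE). The membrane anchors were as mixed. Sdhc stood at 23.4 and 15.9 against 15.1, 29.6 and 17.1 (difference -0.03 ± 0.67, SE), and Sdhd at 51.1 and 26.0 against 23.7, 82.3 and 45.0 (difference -0.28 ± 0.67, SE). All 4 differences were below their standard errors, and each changed sign when 1 library was left out, with ranges of -0.13 to 0.44 for Sdha, -0.44 to 0.29 for Sdhb, -0.29 to 0.25 for Sdhc and -0.75 to 0.19 for Sdhd.

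In complex III, which passes electrons from ubiquinol to cytochrome c, 4 of 6 members were negative and the median was -0.32, or -0.62 without Cxcr4-labelled library 1 and -0.057 without Cxcr4-labelled library 3. Uqcrb (chromosome 13, 66900617 to 66905378, minus strand), a small accessory subunit, stood at 33.4 and 60.8 normalised counts in the Bmal1-labelled and at 66.7, 71.8 and 164 in the Cxcr4-labelled libraries. The groups did not overlap, although 31 reads stood behind the value of Cxcr4-labelled library 1. The 95% Poisson interval of that value, 45.3 to 94.7, includes the value of Bmal1-labelled library 3. The difference was -1.02 ± 0.58 (SE; limma, unadjusted p 0.117). It came to -0.60 when Bmal1-labelled library 2 was left out, and to -0.61 when Cxcr4-labelled library 3 was. Uqcrfs1 (chromosome 13, 30540308 to 30545362, minus strand), the Rieske iron-sulfur protein, stood at 11.4 and 4.71 against 21.5, 17.1 and 12.4. These values lay apart by less than 1 count between Bmal1-labelled library 2 and Cxcr4-labelled library 3, with a difference of -1.06 ± 0.80 (SE; limma, unadjusted p 0.217), or -1.63 without Bmal1-labelled library 2 and -0.50 without Bmal1-labelled library 3. Uqcrc2, a core protein, overlapped at 44.5 and 45.1 against 30.1, 65.9 and 96.4. Its difference was -0.36 ± 0.60 (SE) and went to 0.0048 without Cxcr4-labelled library 3. Cyc1, cytochrome c1, was the most positive of the complex, at 6.91 and 13.2 against 8.61, 2.53 and 7.73 (difference 0.67 ± 0.94, SE).

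Cycs, the soluble carrier between complexes III and IV and also a trigger of apoptosis when released, stood at 7.82 and 12.1 normalised counts in the Bmal1-labelled libraries. In the Cxcr4-labelled libraries it was listed at 0, 29.1 and 11.0, the 0 being in the shallowest library. The limma difference was 0.59 ± 1.42 (SE) and its sign turned to -0.50 in edgeR, -0.49 in DESeq2 and -0.82 without Cxcr4-labelled library 1. Near-identical copies of Cycs elsewhere in the genome took 57.4% of the reads of the gene and its copies together, so its own level is uncertain; with the copies added the difference was 0.068.

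In complex IV, cytochrome c oxidase, 7 of 10 members were negative and the median was -0.48, or -0.77 without Cxcr4-labelled library 1 and -0.21 without Bmal1-labelled library 2. Cox6b1 (chromosome 7, 30616861 to 30626151, minus strand), a subunit on the side of the intermembrane space, stood at 20.7 and 29.1 normalised counts in the Bmal1-labelled libraries, 24.9 ± 5.94 (SD, n = 2). It stood at 40.9, 87.2 and 76.8 in the Cxcr4-labelled libraries, 68.3 ± 24.3 (SD, n = 3). Every Cxcr4-labelled value was above both Bmal1-labelled values, although 19 reads stood behind the lowest of them, with a 95% Poisson interval of 24.6 to 63.9 that covers counting error only. The difference was -1.37 ± 0.56 (SE), with a 95% confidence interval from -2.66 to -0.07, an unadjusted limma p of 0.0406 and a limma adjusted p of 0.9999. edgeR gave -1.49 with an adjusted p of 0.996, and DESeq2 an adjusted p of 0.909. Over all alternatives run on this gene the lowest adjusted p was 0.241, in the limma fit with replicate number as a block.

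The other complex IV members described here had overlapping or nearly touching groups. Cox4i1, the nuclear subunit at which ATP is known to act on the enzyme, stood at 78.2 and 100.5 normalised counts against 94.7, 145 and 225, a difference of -0.71 ± 0.51 (SE). Cox6a1, the isoform of subunit 6a found outside heart and muscle, stood at 34.6 and 45.5 against 56.0, 42.9 and 142 (difference -0.80 ± 0.62, SE). For both genes Cxcr4-labelled library 3 was highest and the groups overlapped, and without that library the differences were -0.40 for Cox4i1 and -0.30 for Cox6a1. Ndufa4 stood at 13.5 and 14.8 against 2.15, 13.5 and 4.45, without overlap by less than 1 count, and differed by 1.27 ± 0.97 (SE). Cox5b had the widest spread between libraries of any member detected in all, 51.3-fold, from 32.5 in Bmal1-labelled library 3 to 0.633 (3 reads) in Cxcr4-labelled library 2, and 56.5% of the reads of Cox5b and its copy lay on the copy. With the copy added, the values were 18.6 and 44.8 in the Bmal1-labelled and 27.98, 19.4 and 34.1 in the Cxcr4-labelled libraries, so the wide range did not hold.

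In complex V, the ATP synthase, 11 of 14 members were negative and the median was -0.28, which went to 0.20 without Cxcr4-labelled library 3. Atp5l, subunit g of the membrane part, was the most negative member of all at 14.4 and 2.69 normalised counts against 15.1, 15.0 and 37.6, a difference of -1.51 ± 0.91 (SE; limma, unadjusted p 0.136), or -2.54 without Bmal1-labelled library 2 and -0.48 without Bmal1-labelled library 3. The groups did not overlap, but copies of Atp5l held 36.2% of the joint reads. With the copies added, the values were 29.5 and 24.9 against 15.1, 32.5 and 41.0, the groups overlapped, and the difference was -0.0099 ± 0.65 (SE). Atp5e, the epsilon subunit of the central stalk, leaned the other way at 13.5 and 20.2 against 10.8, 11.4 and 2.93. Its groups did not overlap and the difference was 1.08 ± 0.89 (SE; limma, unadjusted p 0.26), or 0.54 without Cxcr4-labelled library 3. The Atp5e value of Cxcr4-labelled library 1 came from 5 reads, with a 95% Poisson interval of 3.495 to 25.1 that includes both Bmal1-labelled values. Atp5h, subunit d of the peripheral stalk, stood at 57.7 and 90.4 against 68.9, 112 and 158 (difference -0.56 ± 0.53, SE), with overlap. Atp5j, a further peripheral stalk subunit, had the smallest spread of any member, 1.39-fold, at 34.0 and 34.8 against 47.4, 41.8 and 45.9.

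The c ring of the ATP synthase is built from a single mature protein that 3 genes encode. Of their joint counts, Atp5g2 held 50.9% and 50.8% in the Bmal1-labelled libraries, and 30.8%, 68.1% and 82.7% in Cxcr4-labelled libraries 1, 2 and 3. Atp5g1 held 9.47% and 12% in the Bmal1-labelled libraries, and 30.8%, 1.23% and 0.807% in the Cxcr4-labelled libraries. Atp5g3 held 39.6% and 37.2%, and 38.5%, 30.6% and 16.4%. The shares in Cxcr4-labelled library 1 rest on 4 reads of Atp5g1, 4 of Atp5g2 and 5 of Atp5g3, too few to place that library against the Bmal1-labelled pair. In normalised counts, Atp5g1 stood at 4.81 and 8.52 against 8.61, 1.06 and 0.937 (difference 1.14 ± 1.09, SE), and copies held 74.7% of the joint reads of Atp5g1 and its copies. With the copies added, the difference of Atp5g1 was 0.33 and that of Atp5g2 -0.89. The value of Atp5g2 in Cxcr4-labelled library 1 then went from 8.61 to 32.3. That of Atp5g1 in Cxcr4-labelled library 3 went from 0.937 to 20.0, its highest of the 5 libraries. The shares above thus depend on whether reads of the copies are counted. Atp5g2 alone stood at 25.9 and 36.1 against 8.61, 58.7 and 96.0 (difference -0.27 ± 0.95, SE), and Atp5g3 at 20.1 and 26.5 against 10.8, 26.4 and 19.1 (difference 0.37 ± 0.69, SE).

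**Figure D5:**
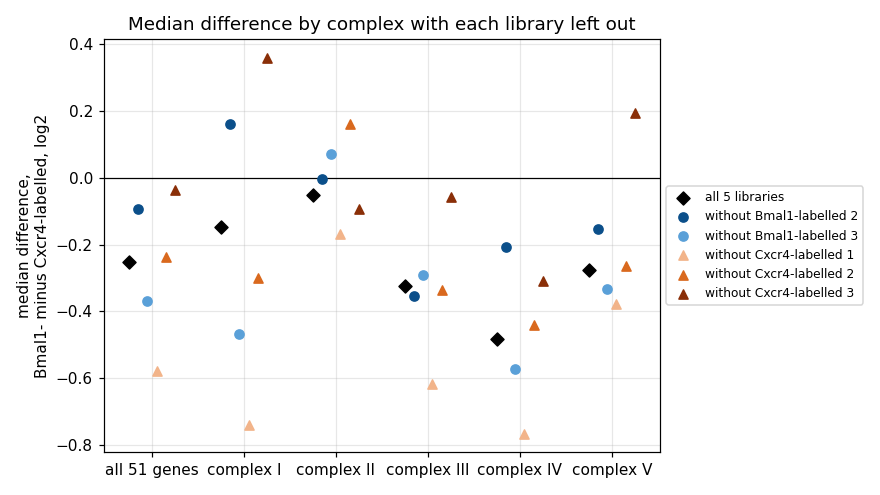
Median difference of the members of each complex (y axis, log2) with all 5 libraries and with each library left out in turn. The median of complex I ranges from -0.74 to 0.36 and that of complex V from -0.38 to 0.20, while those of complexes III and IV stay below 0.

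For the 48 members above 0 in every library, the highest library was a median of 3.48-fold above the lowest. The range stayed within 2-fold for 7 of them, namely Atp5j, Cox7a2, Sdhb, Uqcrc1, Cox8a, Ndufs3 and Sdhc. In Cxcr4-labelled library 1, 27 members had under 10 reads, against 0 in both Bmal1-labelled libraries, 4 in Cxcr4-labelled library 2 and 1 in Cxcr4-labelled library 3. Near-identical copies elsewhere in the genome were found for 14 members, and 19 members overlapped exons of another gene, among them Ndufa2, Atp5j, Uqcrb, Ndufs1, Cox4i1, Atp5l and Ndufs3, so these levels are uncertain.

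The rest of the pathway was read from lists of other subunits, assembly factors and neighbours. Near-identical copies were searched for only for the 51 members, so genes of these lists were not checked for reads lying on copies. The 11 tested genes encoded by mitochondrial DNA had 10 negative differences and a median of -0.75, and all 11 were lowest in Bmal1-labelled library 2, where 18% of all genes were lowest. edgeR and DESeq2 also gave 10 negative, with medians of -0.805 and -0.804. At an unadjusted p under 0.05 DESeq2 called 3 of the 11, against 4.66% of all genes, while limma and edgeR called 0, against 4.18% and 3.58%. The mitochondrial transcripts took 1.44% and 2.44% of reads in the Bmal1-labelled libraries and 2.69%, 2.84% and 3.52% in the Cxcr4-labelled libraries. The groups thus lay apart as shares of reads. In summed normalised counts they overlapped, at 22186 in Bmal1-labelled library 3 and 20681 in Cxcr4-labelled library 1. Of the 11 genes, 9 overlapped and 2 were lower in the Bmal1-labelled libraries without overlap (18.2%, against 5.22% of all genes). mt-Nd4l, a complex I subunit, stood at 671 and 863 normalised counts against 2103, 1680.5 and 1249, without overlap (difference -1.11 ± 0.55, SE; limma, unadjusted p 0.0763). For every read of a nuclear member there were 7.12 and 10.3 mitochondrial reads in the Bmal1-labelled libraries, and 12.6, 10.5 and 10.3 in the Cxcr4-labelled libraries. Of 27 further nuclear subunits, 17 were negative (median -0.09) in limma and 22 in edgeR (median -0.33) and DESeq2 (median -0.34). At an unadjusted p under 0.05 limma called 1 of them lower, against 0.499% of all genes, and 1 higher, against 3.68%, while edgeR and DESeq2 called 3 each. Ndufv3, a subunit of the NADH-binding part of complex I, stood at 18.3 and 14.4 normalised counts against 38.7, 50.0 and 43.0 (difference -1.37 ± 0.56, SE; limma, unadjusted p 0.0379). Ndufb4, an accessory complex I subunit, stood at 0 and 2.24 against 2.15, 19.4 and 27.1, with overlap. Ndufs5, a further accessory subunit, stood at 3.61 and 11.7 against 0, 0.422 and 0 (limma, unadjusted p 0.014).

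Supply and assembly genes gave no adjusted call either. Of 40 tested assembly factors, 15 were negative and 25 positive in limma with a median of 0.24, while edgeR and DESeq2 gave 20 negative with medians of 0.025 and 0.0029. At an unadjusted p under 0.05 limma and edgeR called 1 each, against 4.18% and 3.58% of all genes, and DESeq2 4, against 4.66%. The limma call was Sdhaf1, which helps to insert iron-sulfur clusters into Sdhb, at 4.51 and 6.28 normalised counts against 0, 0 and 0.234 (limma, unadjusted p 0.0124). Tmem70, an assembly factor of complex V, leaned the other way at 5.11 and 10.1 against 15.1, 45.0 and 15.7, without overlap (difference -1.49 ± 0.82, SE). Of the 13 citric acid cycle genes 11 were negative (median -0.24), and of 14 regulators of mitochondrial biogenesis 6 were negative in limma (median 0.18) but 8 in edgeR (median -0.20) and DESeq2 (median -0.19), with 0 unadjusted calls in either list. Polg, the mitochondrial DNA polymerase, was higher without overlap at 36.7 and 48.7 against 32.3, 28.5 and 19.9 (difference 0.66 ± 0.56, SE). Of the 7 tissue-restricted subunit isoforms 3 were in the table and 2 were tested, both negative, and Cox4i2, the lung form of subunit 4, was counted chiefly in Cxcr4-labelled library 2 at 8.66. Among 8 carriers, channels and the ATPase inhibitor, 7 were negative (median -0.33), and Slc25a4, which exchanges ADP for ATP across the inner membrane, stood at 33.7 and 61.4 against 81.8, 105 and 174 (difference -1.31 ± 0.54, SE; limma, unadjusted p 0.0401). None of the genes in these lists passed an adjusted p of 0.05 in limma.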

How the data were processed

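The members and lists were chosen with earlier results of these data known. Polyadenylated RNA was amplified with the NuGen Ovation Single Cell system and sequenced as Illumina TruSeq libraries, per the labels' protocols. CASAVA 1.8.2, cutadapt and RSEM 1.2.3 with build GRCm38 are named in the submitters' processing notes. The deposited table holds a normalised count signal per gene, made by the authors, whose normalisation method, annotation, strand setting and filters were not given in the sources used here. Every value was a whole multiple of 1 read within 0.01, so reads could be recovered, and depth ran from 356872 to 9101826 reads a library. Intervals and floors cover counting error only.

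Genes with a mean of at least 1 CPM (14632 of 19127) were tested on log2(value + 1) with limma 3.58.1 (R 4.3.3, intensity trend, 3 residual and 5.36 prior degrees of freedom), Bmal1-labelled minus Cxcr4-labelled, two-sided, with Benjamini-Hochberg adjustment at 0.05. Fold changes on this scale understate those of low genes. edgeR 4.0.16 (quasi-likelihood) and DESeq2 1.42.0 on the recovered reads, other pseudocounts, filters and scalings, a replicate block, near-identical copies added and each library left out were the alternatives. The copies setting was chosen after seeing the data. Replicates were separate libraries (chi-square per degree of freedom 20.3 to 136 within groups). Named in the text were up to 4 genes of each complex with the smallest unadjusted limma p, Cycs, the 3 c-subunit genes, the 2 highest and the lowest per length in each complex, and up to 3 genes of each pathway list; Cox5b, Atp5j, Ndufs3, Ndufa1 and Ndufa5 were named after their values were seen. Symbols matched 18847 identifiers. Coordinates and exon lengths are from GENCODE M21 on GRCm38. Scripts were tested on simulated data.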

Additional observations from a re-analysis of the deposited data

How the results depend on the processing

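No member passed the adjusted threshold in any of the alternatives, which for all genes gave 0 calls except DESeq2, with 13. Leaving out each library in turn gave medians of -0.74 to 0.36 for complex I, -0.17 to 0.16 for complex II, -0.62 to -0.057 for complex III, -0.77 to -0.21 for complex IV and -0.38 to 0.20 for complex V. The sign of complex I turned when Bmal1-labelled library 2 or Cxcr4-labelled library 3 was left out, that of complex II when Bmal1-labelled library 3 or Cxcr4-labelled library 2 was left out, and that of complex V without Cxcr4-labelled library 3. Single members gave ranges of -0.75 to 0.19 (Sdhd), -0.13 to 0.44 (Sdha), -0.44 to 0.29 (Sdhb), -0.29 to 0.25 (Sdhc), -0.82 to 0.0048 (Uqcrc2), -0.82 to 1.63 (Cycs) and -1.27 to 0.40 (Atp5g2). Without 1 Bmal1-labelled library, the remaining one is assumed to vary like the Cxcr4-labelled libraries.

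Columns scaled to the same total gave 30 negative members, a complex II median of 0.014 and 0.040 for Sdhc; scaling moved the all-gene median between 0.060 and 0.163. Cycs was -0.50 in edgeR and -0.49 in DESeq2. Same-numbered libraries deviated together (r 0.284 and 0.388), but only 2 numbers are shared and no label ties them, so the libraries were not treated as paired. The deviations of 2 Bmal1-labelled libraries mirror each other by construction, so these r values are not separate signs of pairing. Bmal1-labelled library 2 also gave r 0.129 with Cxcr4-labelled library 1. The replicate block gave 39 negative members with 0 calls, a median of -0.62 for complex III and -0.77 for complex IV, -0.13 for Sdha and -0.82 for Cycs. Cxcr4-labelled library 1 has no Bmal1-labelled partner, so by construction these estimates equal those without that library. The cause of the other shifts was not tested. Of 23 named members, 16 kept their sign under all 17 settings. Counting limits the shallowest library, where 3 reads equal 6.46 normalised counts.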
